A study of Mus musculus with 9 samples.

Results

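The genes described here code for the proteins of the cytosolic ribosome and for the translation elongation factors. They were taken by name: every row of the deposited 9-library table whose symbol is Rpl or Rps followed by a digit, without the S6 kinases and the named pseudogene rows, plus Rpsa, Rplp0, Rplp1, Rplp2, Eef1a1, Eef1b2, Eef1d, Eef1g and Eef2. This rule gave 91 of the 23420 genes in the table. Of these, 82 are canonical members, 8 carry the name of a paralog (Rpl3l, Rpl7l1, Rpl10l, Rpl22l1, Rpl36al, Rpl39l, Rps27l and Rps4y2), and Rps19bp1 codes for a protein that binds a ribosomal protein and is not one itself. By its name, Rps19bp1 is included in the counts and read shares of small subunit genes below.

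RNA was sequenced from primary ankle cells of C57BL/6 mice at passage 1, with 3 libraries in each of 3 groups. ADSM are arthritis tissue-derived synovial macrophages from mice with collagen antibody-induced arthritis (CAIA), a model set off by antibodies to type II collagen followed by lipopolysaccharide. ADSF are arthritis tissue-derived synovial fibroblasts from the same kind of mice, and NDSF are synovial fibroblasts of normal tissue from mice without CAIA. Fibroblasts were the cells that adhered to a collagen-coated dish. ADSM came from the non-adherent cells, plated without collagen and cleared of remaining fibroblasts by trypsin treatment. By the methods, ADSM were also cultured for longer, at first together with fibroblasts. Culture time and cell type therefore cannot be told apart in either ADSM comparison. No macrophages of normal tissue were sequenced, so ADSM could not be compared within its own cell type. The study's methods name one stranded library kit for ADSM and ADSF and another for NDSF, while the labels give the first kit for all 9 libraries. If the methods hold, arthritis and library kit cannot be told apart in ADSF minus NDSF. In ADSM minus NDSF, cell type and arthritis cannot be told apart under either account, and by the methods neither can library kit. The methods name female mice, and the libraries are not tied to single animals, so p-values measure the spread between these cultures only.

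The libraries held 2380483 to 3351184 reads, and 1 read was worth 0.854 to 1.24 on the table's scale, which is the number of reads normalised by a trimmed mean of M-values (TMM) factor. The labelled cell types had their markers: the summed level of 14 macrophage genes was 41930 to 44656 in ADSM, against 920 to 1702 in ADSF and 975 to 2258 in NDSF. By the test described below, 12 of the 13 macrophage genes tested were higher in each ADSM comparison, and 1 was lower in ADSM minus NDSF. Of all genes tested, 30.1% were higher in ADSM minus ADSF and 32% in ADSM minus NDSF. The 15 fibroblast genes summed to 142 to 247 in ADSM, 185005 to 248178 in ADSF and 157289 to 238284 in NDSF. Other cells differed as well, since 15 skeletal muscle genes summed to 10.3 to 11.4 for ADSM, 78.4 to 118 for ADSF and 1232 to 3066 for NDSF, and 10 endothelial genes to 5.19 to 10.3, 58.9 to 72.5 and 168 to 497. Neutrophil, lymphocyte and erythroid genes each summed to at most 19.7 in any library. Uty, Kdm5d, Eif2s3y and Ddx3y, all on the Y chromosome, summed to 337 to 469 in ADSM libraries and to 0 in ADSF and NDSF, so cell type and the sex of the source animals cannot be told apart. Genes of dividing cells moved with the groups, with sums of 11596 to 12854 in ADSM, 5291 to 7662 in ADSF and 2823 to 6956 in NDSF. The part of these differences in the results below was not tested.

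A ribosome is built from a small subunit, which reads the mRNA, and a large subunit, which joins amino acids. The proteins of both subunits are made in nearly equal numbers, and their mRNAs are among the most abundant of any growing cell. On the large subunit, the P-stalk (Rplp0 with pairs of Rplp1 and Rplp2) draws in the elongation factors. Eef1a1 delivers charged tRNA, Eef1b2, Eef1d and Eef1g reload Eef1a1 with GTP, and Eef2 moves the ribosome along the mRNA. Many of these mRNAs begin with a run of pyrimidines, the 5′ terminal oligopyrimidine (TOP) tract, through which mTOR signalling controls their translation.

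Annotated transcription starts were found in RefSeq (GRCm38.p6) for 68 of the 91 members. A C followed by at least 4 C or T, beginning within 5 bases of an annotated start, was present in 30 of these 68 genes (44.1%), against 21.2% of 27025 genes in the same table. The following 30-base windows, from 15 bases before the annotated start to 15 bases from it onwards, show members whose levels are described below, with the first such run in capitals.
Eef1a1 (chr9:78481710-78481739, minus strand): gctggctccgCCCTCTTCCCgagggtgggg
Rpl13a (chr7:45128731-45128760, minus strand): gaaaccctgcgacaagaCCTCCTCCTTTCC
Rplp2 (chr7:141447636-141447665, plus strand): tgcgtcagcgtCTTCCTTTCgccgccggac
Rps24 (chr14:24490663-24490692, plus strand): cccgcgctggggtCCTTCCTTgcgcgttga
Rps26 (chr10:128626492-128626521, minus strand): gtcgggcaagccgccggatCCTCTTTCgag
Rps25 (chr9:44407699-44407728, plus strand): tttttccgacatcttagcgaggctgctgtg
Rps3a1 (chr3:86142654-86142683, minus strand): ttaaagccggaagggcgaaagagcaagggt
Rplp0 (chr5:115559452-115559481, plus strand): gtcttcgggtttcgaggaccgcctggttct
The windows of Rps25, Rps3a1 and Rplp0 held no such run at the annotated start, which says nothing about the starts used in these cells. In the 300 bases around the start, CCGGAAG was found on either strand in 27 of 68 members (39.7%), against 9.93% of all genes, and AAGATGGC in 6 of 68 (8.82%), against 3.19%. The CCGGAAG of Rps3a1 lies within its printed window. The 28 tested members with the pyrimidine run had a median log2 fold change of 0.59 in ADSM minus ADSF, and the 34 without it one of 0.71. In ADSM minus NDSF the medians were 0.77 with it and 0.87 without it, and in ADSF minus NDSF 0.24 with it and 0.14 without it.

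The first question was how much of each cell's mRNA these genes took up. Reads in the 91 members made up 11.2% ± 0.885 of ADSM libraries, 5.82% ± 0.145 of ADSF libraries and 5.55% ± 0.276 of NDSF libraries (SD, n = 3 each). ADSM libraries ranged over 10.2 to 11.95%, ADSF libraries over 5.65 to 5.91% and NDSF libraries over 5.34 to 5.86%. ADSM therefore lay above both fibroblast groups without overlap, while the fibroblast groups overlapped. Small subunit genes took 3.65% ± 0.298 in ADSM, 1.83% ± 0.0686 in ADSF and 1.70% ± 0.133 in NDSF. Eef1a1 alone took 1.70% ± 0.122 of reads in ADSM, 0.870% ± 0.0300 in ADSF and 0.904% ± 0.0140 in NDSF. A share of reads does not separate more of this mRNA per cell from less of other mRNA, nor, in bulk cultures, fewer cells of a type from less RNA per cell.

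**Figure D1:**
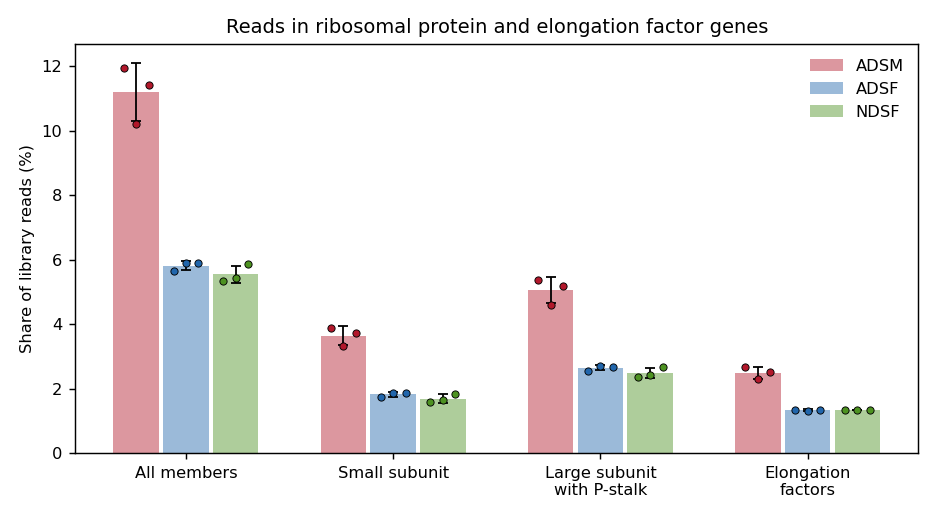
Share of each library's reads (%, vertical axis) in all members, small subunit genes, large subunit genes with the P-stalk, and elongation factors, for ADSM, ADSF and NDSF. Bars are means, error bars SD and points the 3 libraries. The ADSM libraries lie at 10.2 to 11.95% for all members, above every ADSF and NDSF library.

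After TMM scaling, 84 of the 91 members passed the filter on low values (a normalised level of 10 or more, reached by 3 or more libraries), as did 11889 genes in all. Each was tested with limma on log2(value + 1), with Benjamini-Hochberg adjustment over all 11889 genes and a threshold of 0.05. In ADSM minus ADSF, 73 of the 84 members were higher and 1, Rps4y2, was lower, where 30.1% of all genes tested were higher and 41% lower. The median log2 fold change was 0.62 for the members and -0.14 for all genes tested. By class, 28 of 33 small subunit genes, 39 of 43 large subunit genes, 1 of 3 P-stalk genes and all 5 elongation factors were higher. The 3 ADSM libraries lay above the 3 ADSF libraries without overlap in 73 members, where 33.4% of all genes tested did.

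Rps27a, which codes for ubiquitin fused to a small subunit protein, had the largest fold change of the tested members in this comparison. Its values were 4721, 3814 and 4483 in ADSM, 1811, 1879 and 1952 in ADSF, and 1130, 1088 and 1312 in NDSF. The groups did not overlap, and ADSF lay between ADSM and NDSF. The log2 fold change was 1.20 ± 0.11 (SE) in ADSM minus ADSF (adjusted p = 2.95e-06) and 1.88 ± 0.11 in ADSM minus NDSF (adjusted p = 6.55e-08).

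Rps3a1, a small subunit protein, had 6773, 5775 and 6374 in ADSM, 2703, 2761 and 2929 in ADSF, and 2533, 2689 and 2971 in NDSF. Here both fibroblast groups overlapped at a level below all ADSM libraries, with log2 fold changes of 1.17 (adjusted p = 2.30e-06) in ADSM minus ADSF and 1.21 (adjusted p = 1.65e-06) in ADSM minus NDSF. Rps25, another small subunit protein, had 3002, 2408 and 2773 in ADSM, 1205, 1365 and 1367 in ADSF, and 832, 900 and 1026 in NDSF. Like Rps27a it formed 3 steps, with log2 fold changes of 1.05 (adjusted p = 1.19e-05) in ADSM minus ADSF and 1.57 (adjusted p = 4.05e-07) in ADSM minus NDSF. The large subunit genes Rpl27 and Rpl32 came next in ADSM minus ADSF, at 0.98 and 0.93.

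In ADSM minus NDSF, 76 of 84 members were higher and 2, Rps4y2 and Rplp1, were lower, where 32% of all genes tested were higher and 43.3% lower. The median was 0.84 for the members and -0.18 for all genes tested. ADSM serves in both of these comparisons, so they are not independent of each other. By the methods, ADSM and NDSF also differed in library kit. After Rps27a and Rps25, the largest changes were those of Rpl36al, Rpl32 and Rpl35a, with log2 fold changes of 1.43, 1.32 and 1.31. Rpl36al, a near copy of the large subunit gene Rpl36a, had 849, 775 and 877 in ADSM, 464, 497 and 429 in ADSF, and 306, 283 and 343 in NDSF. Its groups did not overlap in any pair. All 4 members on the X chromosome, Rpl10, Rpl36a, Rpl39 and Rps4x, were higher in ADSM than in either fibroblast group.

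**Figure D2:**
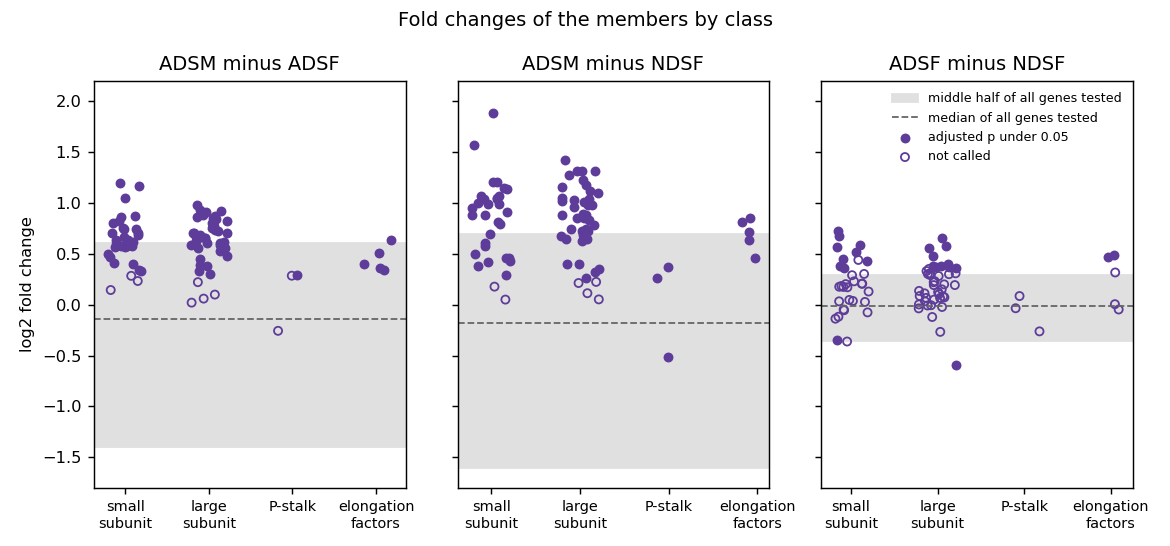
Log2 fold change (vertical axis) of 83 tested members in the 3 comparisons, by class. Filled points had an adjusted p under 0.05 in limma, the dashed line is the median and the grey band the interquartile range of all 11889 genes tested; Rps4y2, at -6.38 and -6.85 in the ADSM comparisons, is left out. Nearly all members lie above the dashed line in both ADSM comparisons.

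The 5 elongation factors of the naming rule were each called higher in both ADSM comparisons. Eef1a1, the most abundant member, had 47262, 38603 and 44791 in ADSM, 28154, 26867 and 28990.5 in ADSF, and 28199.9, 28578 and 26915 in NDSF. Every ADSM library lay above every fibroblast library, and the fibroblast groups overlapped. Its log2 fold change was 0.63 ± 0.15 in ADSM minus ADSF (adjusted p = 0.00324) and 0.64 ± 0.15 in ADSM minus NDSF (adjusted p = 0.00281). Eef2, the translocase, was second in abundance. Its mean was 12824 ± 1609 in ADSM libraries, against 8994 ± 123 for ADSF and 9301 ± 529.8 for NDSF (SD, n = 3 each), with log2 fold changes of 0.50 and 0.46 in the ADSM comparisons. Of the exchange factor, Eef1g rose by 0.37, Eef1d by 0.34 and Eef1b2 by 0.40 on the log2 scale in ADSM minus ADSF. The calls of Eef1g and Eef1d in that comparison were lost in 5 and 3 of 23 alternatives, each time with an adjusted p of at most 0.108. Relative to the summed members, Eef1b2, Eef1d and Eef1g were lower in ADSM minus ADSF, with log2 differences of -0.21, -0.28 and -0.25 (adjusted p = 0.0244, 0.0424 and 0.0477, limma), where 59.6% of all genes tested were lower. Among the 78 canonical members that passed the filter, Eef1a1 had the highest value per kilobase of merged exon in all 3 groups. It stood at 24344 for ADSM, 15653 for ADSF and 15594 for NDSF, and Eef1d was lowest at 287, 228 and 164.

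Rplp1, one of the paired stalk proteins, had 2453, 1836 and 2321 in ADSM, 2407, 2825 and 2623 in ADSF, and 3008, 3105 and 3294 in NDSF. Of the tested canonical members, only Rplp1 had a lower mean in ADSM than in either fibroblast group. Its ADSM libraries lay below its NDSF libraries without overlap. Its log2 fold change was -0.52 ± 0.12 in ADSM minus NDSF (adjusted p = 0.00294) and -0.26 ± 0.12 in ADSM minus ADSF (adjusted p = 0.0861). With CPM (reads scaled to the library total alone) in place of TMM values, these became -0.25 (adjusted p = 0.0641) and 0.07, so the second changed sign and the first was no longer called. Relative to the sum of all tested members, which no choice of library scaling affects, Rplp1 was lower by 0.87 and 1.26 on the log2 scale in ADSM minus ADSF and ADSM minus NDSF (adjusted p = 1.85e-06 and 7.12e-08, limma). By the same measure Rplp0 and Rplp2 were lower as well, by 0.33 and 0.32 in ADSM minus ADSF and by 0.37 and 0.48 in ADSM minus NDSF. Of all genes tested, 59.6% and 63.6% were lower by this measure in these comparisons, as were 20 and 23 of the 84 members.

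Rplp0, the base of the stalk, is used as a reference gene in RT-qPCR, including that of the study. Its values were 8244, 6459 and 7709 in ADSM, 5771, 6298 and 6239 in ADSF, and 5672, 5927 and 5647 in NDSF. Each ADSM library lay above all fibroblast libraries, the lowest by a small margin. The log2 fold change was 0.29 ± 0.12 in ADSM minus ADSF (adjusted p = 0.0522), 0.37 in ADSM minus NDSF (adjusted p = 0.0156) and 0.09 in ADSF minus NDSF (adjusted p = 0.644). The first passed the threshold in 7 of 23 alternatives, with values from 0.21 to 0.62 over all of them, and the second was no longer called without ADSM library 1 (adjusted p = 0.0682) or 3 (adjusted p = 0.0606). The RT-qPCR primers for Rplp0 were as follows, in lower case throughout since no base is singled out.
Forward primer: ttccaggctttgggcatca
Reverse primer: atgttcagcatgttcagcagtgtg
Both primers matched transcripts of 4 annotated genes exactly, Rplp0 and the processed pseudogenes Gm8730, Gm9625 and Gm6278, each giving a product of 128 bases. Over the 9 libraries, the genes whose log2 values followed Rplp0 most closely were Rps28, Rps12, Cib1, Cox7c and 5031439G07Rik, with Pearson correlations of 0.98, 0.98, 0.97, 0.97 and 0.97, as a description of libraries that fall into groups. Rplp2, which pairs with Rplp1, had log2 fold changes of 0.29 (adjusted p = 0.0295) in ADSM minus ADSF and 0.26 (adjusted p = 0.0467) in ADSM minus NDSF, and these calls were lost in 6 of 23 and 14 of 22 alternatives, with adjusted p up to 0.115 and 0.171.

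Some members hardly moved. Rpl13a, a large subunit protein that is also a common reference gene, had 3209, 2383 and 2915 in ADSM, 2470, 2820 and 2824 in ADSF, and 2588, 2625 and 2943 in NDSF. All 3 groups overlapped, and its log2 fold changes were 0.06 in ADSM minus ADSF, 0.05 in ADSM minus NDSF and -0.01 in ADSF minus NDSF. Among 17 reference genes it was closest to 0 in the first and last of these, and Polr2a was closer in ADSM minus NDSF. With CPM in place of TMM values, it was called higher in ADSM, by 0.39 and 0.32. Rps2, Rpl22l1, Rpl41 and Rps20 were the other members with the smallest range of fold changes over the 3 comparisons. In ADSM minus ADSF the members not called were Rpl13a, Rpl22l1, Rpl29, Rpl41, Rplp0, Rplp1, Rps2, Rps20, Rps27l and Rps19bp1, and in ADSM minus NDSF they were Rpl13a, Rpl22l1, Rpl36, Rpl41, Rps2 and Rps26.

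**Figure D3:**
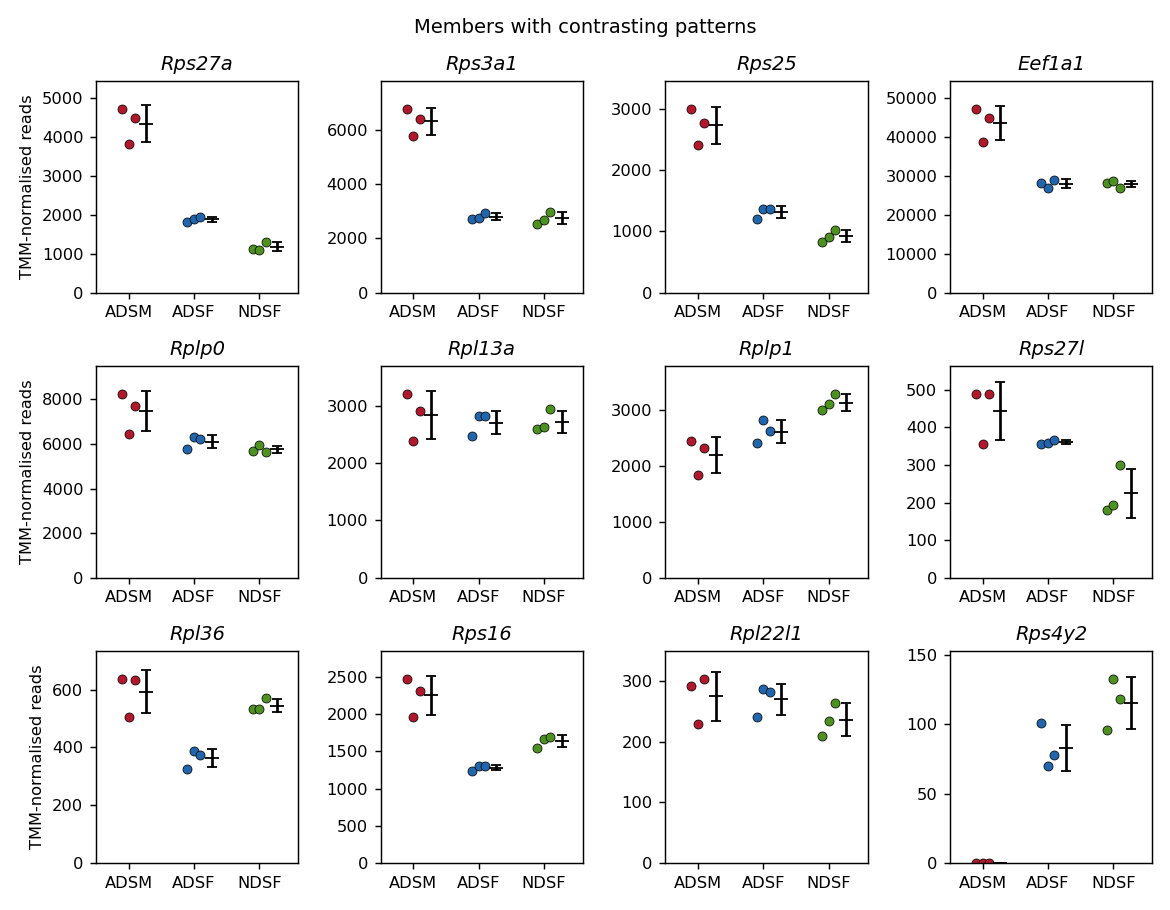
TMM-normalised reads (vertical axis, from 0) of 12 members in ADSM, ADSF and NDSF libraries. Points are libraries, and the bar beside them is the mean with SD (n = 3). Rps27a and Rps25 form 3 steps, Rps3a1 and Eef1a1 are high in ADSM alone, Rpl13a overlaps in all groups and Rplp1 is lowest in ADSM.

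The comparison of ADSF with NDSF set fibroblast cultures of arthritic tissue against those of normal tissue, which also differed in muscle and endothelial transcripts and, by the methods, in library kit. In ADSF minus NDSF, 21 of 84 members were higher and 2 were lower, where 9.88% of all genes tested were higher and 11.3% lower. ADSF lay above NDSF without overlap in 43 members and below it in 7, where 18.4% and 19.7% of all genes tested did. The median was 0.19 for the members and -0.01 for all genes tested. The count of 21 became 7 without ADSF library 2, 8 without ADSF library 3, 7 without NDSF library 1, 7 without NDSF library 2 and 10 with no variance trend in the fit, with 3.28 to 7.44% of all genes higher in those fits. NDSF library 3 differed most from its group. It held the highest NDSF value of 71 of the 84 members, and without it 29 members were higher, where 18.2% of all genes were.

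Rps27l, a paralog of Rps27 known as a target of p53, had the largest change here, at 0.72 ± 0.19 (adjusted p = 0.0243). It had 489, 355 and 490 in ADSM, 356, 358 and 368 in ADSF, and 180, 193 and 300 in NDSF. The arthritis groups overlapped each other and both lay above NDSF, while the call was lost in 5 of 22 alternatives. Rps27a, Rpl37, Rps24 and Rpl36al followed with log2 fold changes of 0.68, 0.65, 0.59 and 0.58 (adjusted p = 0.00341, 0.00463, 0.0061 and 0.00535). Rps24 had 2316, 2669 and 2649 in ADSF and 1581, 1641 and 1860 in NDSF, without overlap.

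Rpl36, a large subunit protein, was lower in ADSF. It had 637, 507 and 634 in ADSM, 327, 386 and 373 in ADSF, and 533, 531 and 571 in NDSF. ADSF lay below both other groups, which overlapped, and the log2 fold change was -0.59 ± 0.12 in ADSF minus NDSF (adjusted p = 0.00676). It was called lower in every alternative run. Rps16 was likewise lowest in ADSF, with 2473, 1963 and 2314 in ADSM, 1238, 1301 and 1307 in ADSF, and 1540, 1672 and 1688 in NDSF, where no groups overlapped. Its change of -0.35 (adjusted p = 0.0395) was lost in 10 of 22 alternatives, with adjusted p up to 0.136. Rps26 had a change of -0.36 that was not called (adjusted p = 0.0588). In all, 16 of 84 members had their lowest group mean in ADSF and highest in ADSM, against 66 with the order ADSM, ADSF, NDSF from high to low.

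**Figure D4:**
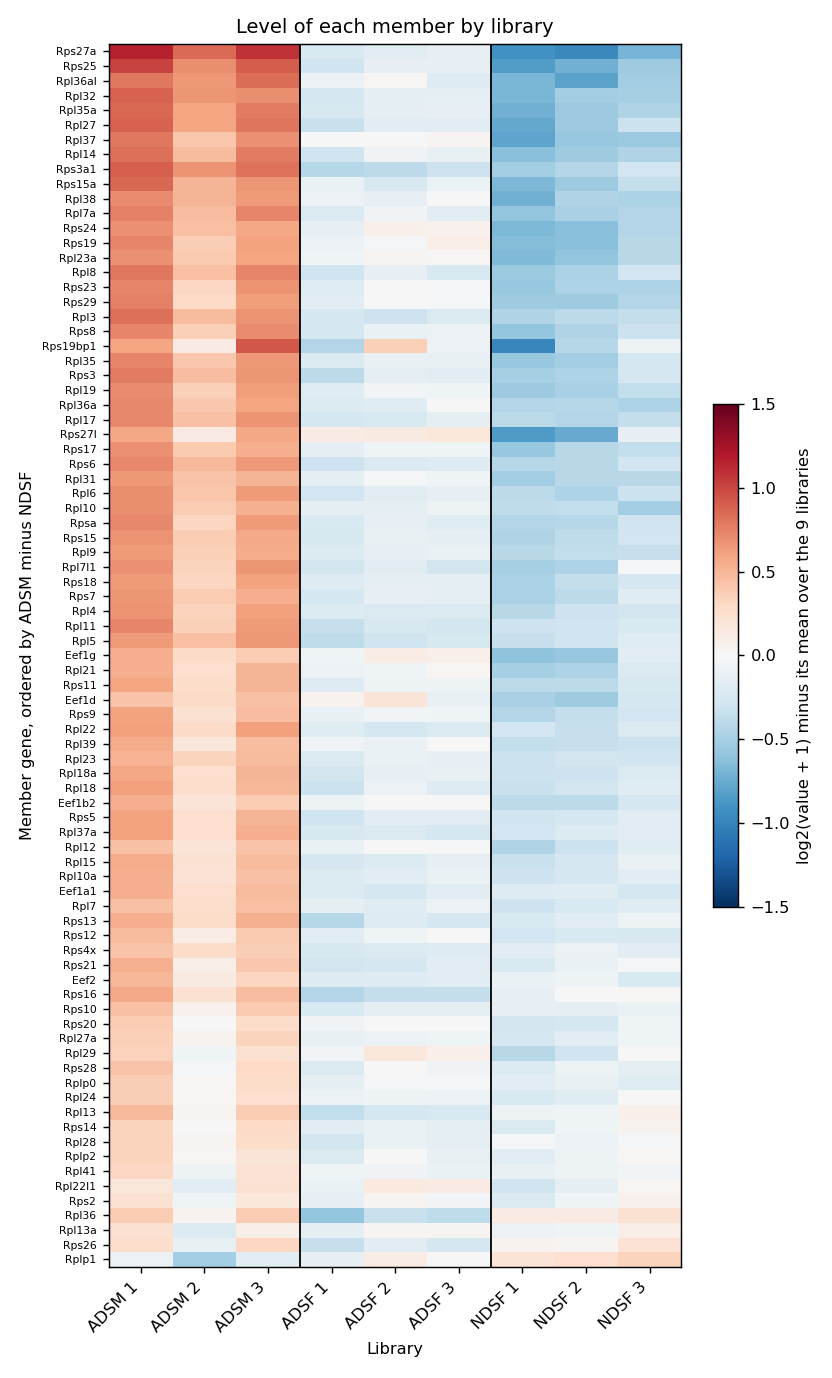
Log2(value + 1) minus its mean over the 9 libraries (colour) for 83 tested members (rows, ordered by ADSM minus NDSF, without Rps4y2) in each library (columns). ADSM libraries are high in most rows, ADSM library 2 less so, and the lowest rows (Rplp1, Rps26, Rpl13a, Rpl36) break the pattern.

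Within ADSM, library 2 held the lowest value of every tested member, Rps4y2 being at 0 in all 3. Its member share was still 10.2%, against at most 5.91% in any fibroblast library. When each member was instead set against the summed members, 16 were higher and 20 lower in ADSM minus ADSF, where 13.5% of all genes tested were higher and 59.6% lower. In ADSM minus NDSF, 31 were higher and 23 lower (all genes, 14.4% and 63.6%), and in ADSF minus NDSF, 14 were higher and 7 lower (all genes, 5.48% and 13.7%). Relative to that sum in ADSM minus ADSF, Rps27a was higher by 0.59 and Rpl13a had a log2 difference of -0.55.

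The paralogs differed from one another. Rps4y2, which RefSeq lists under Rps4l, on chromosome 6, is annotated in GENCODE as a processed transcript and not as protein-coding. Rps4y2 had no read in any ADSM library. It had 101, 69.7 and 78.1 in ADSF and 95.7, 133 and 118 in NDSF. At a floor of 3 reads over the 3 ADSM libraries, it was at least 88.1-fold lower in ADSM than in ADSF and at least 123-fold lower than in NDSF. It passed the filter through the fibroblast libraries alone, so a difference was bound to follow. Rpl22l1 amounted to 21.5 to 22.7% of the level of its parent Rpl22 in ADSM libraries, against 31.4 to 39.4% in ADSF and 29.3 to 35.3% in NDSF. The exact 2-sided permutation test gave p = 0.1 for each, the smallest that 3 against 3 allows, and an adjusted p of 0.2 over 12 such tests. Rpl7l1 was higher in ADSM, with log2 fold changes of 0.80 against ADSF and 0.89 against NDSF, and was 11.96 to 13.5% of Rpl7 in ADSM, 10.0 to 11.5% in ADSF and 9.72 to 12.8% in NDSF. Rpl3l, Rpl10l and Rpl39l had at most 2 reads in any library.

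The canonical members Rpl26, Rpl30, Rpl34 and Rps27 failed the filter although the ribosome contains their proteins. Over all 9 libraries together they had 1, 79, 75 and 39 reads. In the deposited table (mm10), 95.8% of the exon bases of Rpl26 also belong to the row Gm15772, 76.0% of Rpl30 to Gm12191, 67.2% of Rpl34 to Rpl34-ps1 and 60.0% of Rps27 to Gm9846, each on the same strand. These partner rows had 0 reads in every library. The other 78 canonical members shared under 1% of their exon bases with another row on the same strand, and all 78 passed the filter, with mean values of at least 499.7. The sources used here do not give how reads in shared exons were counted, and its part in these low values was not tested.

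**Figure D5:**
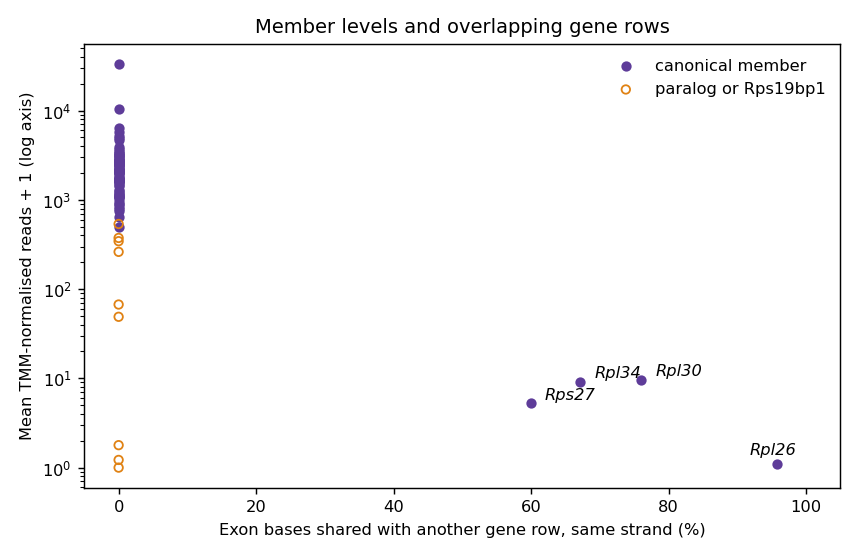
Mean TMM-normalised reads + 1 over the 9 libraries (log axis) of each member against the percentage of its exon bases shared with another row of the table on the same strand. Rps27, Rpl34, Rpl30 and Rpl26, at 60.0 to 95.8%, lie near the floor, and the canonical members near 0% lie at 499.7 or more; open circles are paralogs and Rps19bp1.

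The same loci were not silent in the FPKM table, which covers ADSM and ADSF. The row Gm15772 had 2674, 2181 and 2497 FPKM in ADSM and 1413, 1419 and 1486 in ADSF, and Rpl26 itself 411 ± 93.5 in ADSM and 224 ± 46.2 in ADSF. Gm12191 had 1847 ± 188 and 1054 ± 6.06, Rpl34-ps1 2100 ± 256 and 1336 ± 72.2, and a joint row of Gm9846 and Rps27 3613 ± 427 and 1589 ± 82.2, ADSM before ADSF in each pair. In each of these rows the 3 ADSM libraries lay above the 3 ADSF libraries. The rows of Rpl30 and Rps27 alone were lower and overlapped between the groups. Rpl30 had 104.5 ± 28.2 in ADSM and 102.6 ± 36.0 in ADSF, and Rps27 had 7.71 ± 1.09 and 5.28 ± 2.92. Many members also have near-identical copies elsewhere in the genome, so single values are uncertain where copies share reads. Of the 75-base windows of Rpl26, Rpl30, Rpl34 and Rps27, 57.5%, 65.1%, 30.5% and 60.7% occur in other annotated genes. For Rpl5, at 4144 to 4747 in ADSM and 2332 to 2563 in ADSF, 92.5% do. Among the largest changes of the ADSM comparisons, the share was 67.5% for Rps27a, 60.2% for Rps3a1, 50.3% for Rps25 and 61.3% for Rpl36al. It was 51.2% for Rpl27, 5.87% for Rpl32 and 41.3% for Rpl35a. The 45 tested members with under 50% shared windows had a median log2 fold change of 0.58 in ADSM minus ADSF, with 38 higher, against 0.66 for the other 39, with 35 higher.

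Other genes of translation were counted from lists in the same fits, beside shares of all genes tested of 30.1% higher and 41% lower in ADSM minus ADSF, 32% and 43.3% in ADSM minus NDSF, and 9.88% and 11.3% in ADSF minus NDSF. Fau, which codes for a small subunit protein, and Gnb2l1, which codes for a protein bound to the small subunit, lie outside the naming rule and were higher in ADSM minus ADSF, by 0.90 and 0.70 on the log2 scale. Ribosome biogenesis factors of the nucleolus were higher in 53 and lower in 3 of 65 genes in ADSM minus ADSF and in 58 and 2 in ADSM minus NDSF, and 27 were higher in ADSF minus NDSF, with medians of 0.82, 1.45 and 0.52. Rrp1b led in both ADSM comparisons, its mean being 502 in ADSM, against 104 for ADSF and 61.3 for NDSF. Nolc1, a nucleolar chaperone, was highest in ADSM at 1230, followed by 382 in ADSF and 176 in NDSF. Of 76 mitochondrial ribosomal proteins, 62 were higher and 1 lower in ADSM minus ADSF, and 9 were higher in ADSF minus NDSF.

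Initiation factors were mixed, with 26 higher and 5 lower of 48 in ADSM minus ADSF. Pabpc1, the poly(A)-binding protein, was higher by 0.69 and Eif4a2, a helicase, lower by 0.84 on the log2 scale. Of 20 cytosolic tRNA synthetases, 9 were higher in ADSM minus ADSF, 16 in ADSM minus NDSF and 12 in ADSF minus NDSF, where 30.1%, 32% and 9.88% of all genes were. RNA polymerase I and III genes, which serve rRNA and tRNA synthesis, were higher in 20 and lower in 2 of 37 in ADSM minus ADSF. Nascent chain factors, which act on the emerging protein, were higher in 12 and lower in 2 of 21. Host genes of small nucleolar RNAs were higher in 0 and lower in 4 of 11, where 30.1% and 41% of all genes were. Of 16 other elongation, termination and recycling factors, 7 were higher and 4 lower in ADSM minus ADSF. Among these, Eef1a2, the muscle and nerve form of Eef1a1, was at 0 in every ADSM library and averaged 8.97 for ADSF and 24.8 for NDSF. Eif5a2 was likewise at 0 in ADSM, against means of 61.7 for ADSF and 63.6 for NDSF. Both passed the filter through the fibroblast libraries alone. Of 12 genes for brakes on translation or for the control of such brakes, 5 were higher and 5 lower in ADSM minus ADSF. Of all genes tested, 30.1% were higher and 41% lower. Among them Eef2k, the kinase that inhibits Eef2, averaged 40.1 for ADSM, against 227 for ADSF and 213 for NDSF. Its log2 fold change was -2.51 in ADSM minus ADSF (adjusted p = 1.09e-06). Among S6 kinases and mTOR pathway genes, 8 were higher and 13 lower of 29 in ADSM minus ADSF, shares near those of all genes tested (30.1% and 41%). Group means were 386, 28.3 and 32.5 for Rps6ka1 and 9.30, 120 and 69.3 for Rps6ka2 in ADSM, ADSF and NDSF. Of 20 other mRNAs known for TOP tracts, 11 were higher and 3 lower in ADSM minus ADSF, with a median of 0.42. Npm1 was higher in ADSM minus ADSF by 1.31, and Vim, the intermediate filament gene of mesenchymal cells, was lower by 2.45 on the log2 scale.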

How the data were processed

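The authors mapped paired reads to mm10 with TopHat and used Cufflinks (processing notes, no versions), and the sources used here name no counting tool. In the main deposited table each gene has a signal, its reads after TMM scaling, together with exon coordinates and merged exon length. Every value was a whole multiple (within 0.001) of the library's smallest value, 100% of values, and this multiple was taken as reads. The authors also deposited FPKM values for ADSM and ADSF, and columns of fold changes and p-values that were not used.

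Genes reaching 10 in 3 or more libraries were fitted with limma 3.58.1 (R 4.3.3) on log2(value + 1), with a mean per group and a variance trend, and p-values were adjusted over all 11889 genes. On this scale a fold change understates the change of low genes. The members and gene lists were chosen with earlier results of these data known. Named genes were the 9 members the rule adds by name, paralogs with their parents, the 5 largest and 5 smallest fold changes per comparison, members against the median's sign, the most abundant, the least variable and those that failed the filter, and the leading genes of each list. Alternatives used edgeR 4.0.16 and DESeq2 1.42.0 on recovered reads, other scalings, pseudocounts and filters, a replicate block, and leaving out each library. Some planned paralog ratios (Rps27l, Rpl39l, Rpl3l, Rpl10l) were not computed because one gene of each pair failed the filter. The bounds for Rps4y2 cover counting error only, and the SD of the shares is the spread between the libraries of a group. Sequences came from RefSeq (GRCm38.p6) and the study's primer list, and transcripts from GENCODE of the same build. Only the limma fit was run on simulated data, with the same spread beyond counting error set for every gene.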

Additional observations from a re-analysis of the deposited data

Results flagged for a closer look

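Signal was found outside the main measurement at 4 loci whose members were at or near 0 reads in the main table. Summed over the FPKM rows of each locus, the Rpl26 locus had 2862 ± 335 FPKM in ADSM and 1664 ± 84.5 in ADSF (SD, n = 3 each). The Rpl30 locus had 1951 ± 207 in ADSM and 1157 ± 41.8 in ADSF, and the Rpl34 locus 2128 ± 257 in ADSM and 1351 ± 68.8 in ADSF. At the Rps27 locus the sums were 3621 ± 427 in ADSM and 1594 ± 80.2 in ADSF. The ratios of these means, ADSM over ADSF, were 1.72, 1.69, 1.57 and 2.27 for Rpl26, Rpl30, Rpl34 and Rps27, and the libraries of the 2 groups did not overlap at any of the 4 loci. The rows were chosen after the values of the main table had been seen, and the FPKM table holds no NDSF libraries.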

How the results depend on the processing

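Alternatives were run for the members, not for single genes of the other lists. Over the 40 tested members chosen for naming, no called change reversed in any alternative run. Of their 120 fold changes, 81 kept their side of the threshold in every alternative and 39 changed side in some. With CPM in place of TMM values, the median log2 fold change of the members became 0.95 in ADSM minus ADSF and 1.11 in ADSM minus NDSF, where the medians of all genes moved to 0.18 and 0.08, and 1 member was lower in ADSM minus NDSF in place of 2. The split of all genes moved with it, with 41.4% higher and 33.5% lower in ADSM minus ADSF. With upper-quartile factors the member medians were 0.77 and 1.01. In ADSF minus NDSF, 10 members were higher without the variance trend. There 1 was lower in place of 2 without the trend, with edgeR, with TMM on the genes outside the members and with the replicate block. The number lower was 3 with DESeq2, with CPM, with no filter on low values and with only the 2 groups compared. Outside the 10 most abundant genes of each library, the remaining members took 9.63% of reads for ADSM, 5.60% for ADSF and 5.20% for NDSF. The genes left out included 2 members in each ADSM library and 1 in each fibroblast library. The table has no mitochondrial genes. Leaving out 1 library at a time gave 7 to 29 members higher and 1 to 3 lower in ADSF minus NDSF, 65 to 77 higher and 1 to 2 lower in ADSM minus ADSF, and 68 to 78 higher in ADSM minus NDSF. With FPKM, an alternative chosen after seeing the data, 71 members were higher in ADSM minus ADSF. After group means were removed, correlations of same-numbered libraries ran from -0.14 to 0.18. With so few libraries, these cannot show whether same-numbered cultures shared an animal or a preparation. The replicate block gave 16 members higher in ADSF minus NDSF. For Rps4y2 relative to Rps4x the log2 difference rests on the pseudocount, at -7.94 and -8.34 with 0.5 and -4.70 and -5.08 with 5 in the ADSM comparisons. At 2380483 reads or more per library, members with a few reads could not be compared.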
